A study of Mus musculus with 24 samples.

Results

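Peg10 and Plagl1, together with the imprinted genes Sgce, Peg3, Mest, Igf2, Cdkn1c, Grb10, Ndn and Nnat, were followed in the prefrontal cortex of mice that carry a deletion modelling the human 22q11.2 microdeletion. The set is a list of 10 gene symbols, all imprinted genes outside the imprinted cluster of chromosome 12, among 18820 genes with a named row in the array table. Each of the 10 had a single row with that symbol alone, so no choice between probe sets was needed. The list was drawn up with the genotype differences of Peg10 and Plagl1 already known. The differences between genotypes are therefore given as a description, without a p-value for any of the 10.

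The mutant group (MUT) held 12 samples from male mice heterozygous for the deletion, labelled Df16(A)+/- or Df(16)A+/-, which removes a single copy of a segment of chromosome 16. The wild-type group (WT) held 12 samples from littermates, also male. All mice were 8 weeks old on a C57BL6/J background, and each sample was total RNA from prefrontal cortex on an Affymetrix whole-transcript array. The labels used here do not say from which parent the deletion was inherited. They name replicates without stating that each is a separate animal, so p-values measure the spread between these samples. Each sample is called a mouse below. Values are on the log2 scale, where a difference of 1 is a doubling of signal, and levels of different genes cannot be set against each other because each gene has its own probes.

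Imprinted genes are expressed mainly from the copy inherited from the father or mainly from that inherited from the mother, under the control of DNA methylation marks laid down in the germ line. Many of them act on growth: some, such as Igf2, promote it, and others, such as Cdkn1c and Grb10, restrain it. In the brain several are most active in development and remain detectable in neurons, meninges and choroid plexus of adults. None of the 10 genes lies in the deleted segment, since they map to chromosomes 2, 6, 7, 10 and 11.

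Plagl1, Mest and Nnat are among the imprinted genes known to carry a germline methylation mark at a promoter of their own. Windows of 250 bases before an annotated start were found for 7 of the 10 genes in the RefSeq table of assembly GRCm38.p6, 13 windows in all. Peg10, Sgce and Cdkn1c had no window there, so they were not searched. They were searched on both strands for TGCCGC, the core motif of ZFP57, a zinc-finger protein that holds methylation at imprinted regions when the CG inside the motif is methylated. The motif was present in windows of 2 of the 7 genes, Plagl1 and Mest. No window of Peg3, Igf2, Grb10, Ndn or Nnat held it. It was present in 3 of the 13 windows and in 8.68% of all 32851 windows of that length, but the windows of 2 starts of Mest overlap and hold the same motif sites, so they are not independent counts. The 3 below are shown as examples. The windows of Plagl1 and of a start of Mest hold the motif, and the window of Nnat does not. Sequence outside the windows was not searched, and a link between the motif and the genotype differences was not tested. Capitals mark the motif, which appears as GCGGCA where it lies on the other strand.
Plagl1, chr10:13090582-13090831, plus strand: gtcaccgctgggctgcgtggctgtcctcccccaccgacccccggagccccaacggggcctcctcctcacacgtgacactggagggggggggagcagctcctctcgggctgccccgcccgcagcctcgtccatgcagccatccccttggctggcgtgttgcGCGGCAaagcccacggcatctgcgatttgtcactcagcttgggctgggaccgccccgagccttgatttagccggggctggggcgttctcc
Mest, chr6:30737800-30738049, plus strand: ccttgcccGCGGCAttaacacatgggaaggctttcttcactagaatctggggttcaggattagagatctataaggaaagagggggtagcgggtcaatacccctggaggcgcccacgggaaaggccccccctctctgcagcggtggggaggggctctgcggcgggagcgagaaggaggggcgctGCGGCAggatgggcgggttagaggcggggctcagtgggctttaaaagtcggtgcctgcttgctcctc
Nnat, chr2:157559828-157560077, plus strand: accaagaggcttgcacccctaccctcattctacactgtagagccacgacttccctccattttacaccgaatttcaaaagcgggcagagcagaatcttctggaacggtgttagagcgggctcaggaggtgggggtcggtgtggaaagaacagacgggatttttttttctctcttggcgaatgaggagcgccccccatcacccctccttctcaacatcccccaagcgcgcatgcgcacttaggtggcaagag

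The Plagl1 window held 19 CG dinucleotides, more than 80.3% of all windows, and had a GC content of 70.4%. That of Mest held 14 and that of Nnat 12, against a median of 6 over all windows. Among the other members, the windows ranged from 1 CG at a start of Igf2 to 40 CG at a start of Grb10. These counts describe the sequence only, since methylation was not measured.

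The arrays carried the genotype that their labels give. All 19 listed genes of the deleted segment passed as lower in mutants, and their mean level lay between 8.37 and 8.45 in MUT and between 9.03 and 9.10 in WT. Among neuronal genes, Slc17a7, the vesicular glutamate transporter of cortical excitatory neurons, was at 13.05 ± 0.04 in MUT and 13.06 ± 0.04 in WT (SD, n = 12 each). Snap25, a synaptic fusion protein, was at 13.56 ± 0.04 in MUT and 13.56 ± 0.03 in WT. These levels do not by themselves show which brain region was dissected. The first component of the within-genotype variation held 13.88% of it. MUT replicates 9, 5 and 10 had its highest scores, 19, 11.6 and 11.6, and MUT replicate 4, at -12.0, lay about as far out on the other side; results are also given without the first 3, called the outlying arrays, a choice taken over from an earlier analysis of these data. The table gives no detection call, so no gene can be called absent. In tissue of mixed cell types, fewer cells of a type and less RNA per cell cannot be told apart.

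In the limma fit over all 18820 genes, 2 of the 10 imprinted genes passed the threshold of an adjusted p of 0.05. Both were lower in mutants, where 0.228% of all genes passed as lower. None passed as higher, against 0.531% of all genes, and 8 passed in neither direction. Because the list was headed by genes known to differ, nothing is read from that share. The median difference was -0.035 over the 10 genes and -0.001 over all genes, with 6 of the 10 below 0 against 51.0% of all genes. In none of the 10 did the groups stand fully apart, as they did in 0.218% of all genes.

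**Figure D1:**
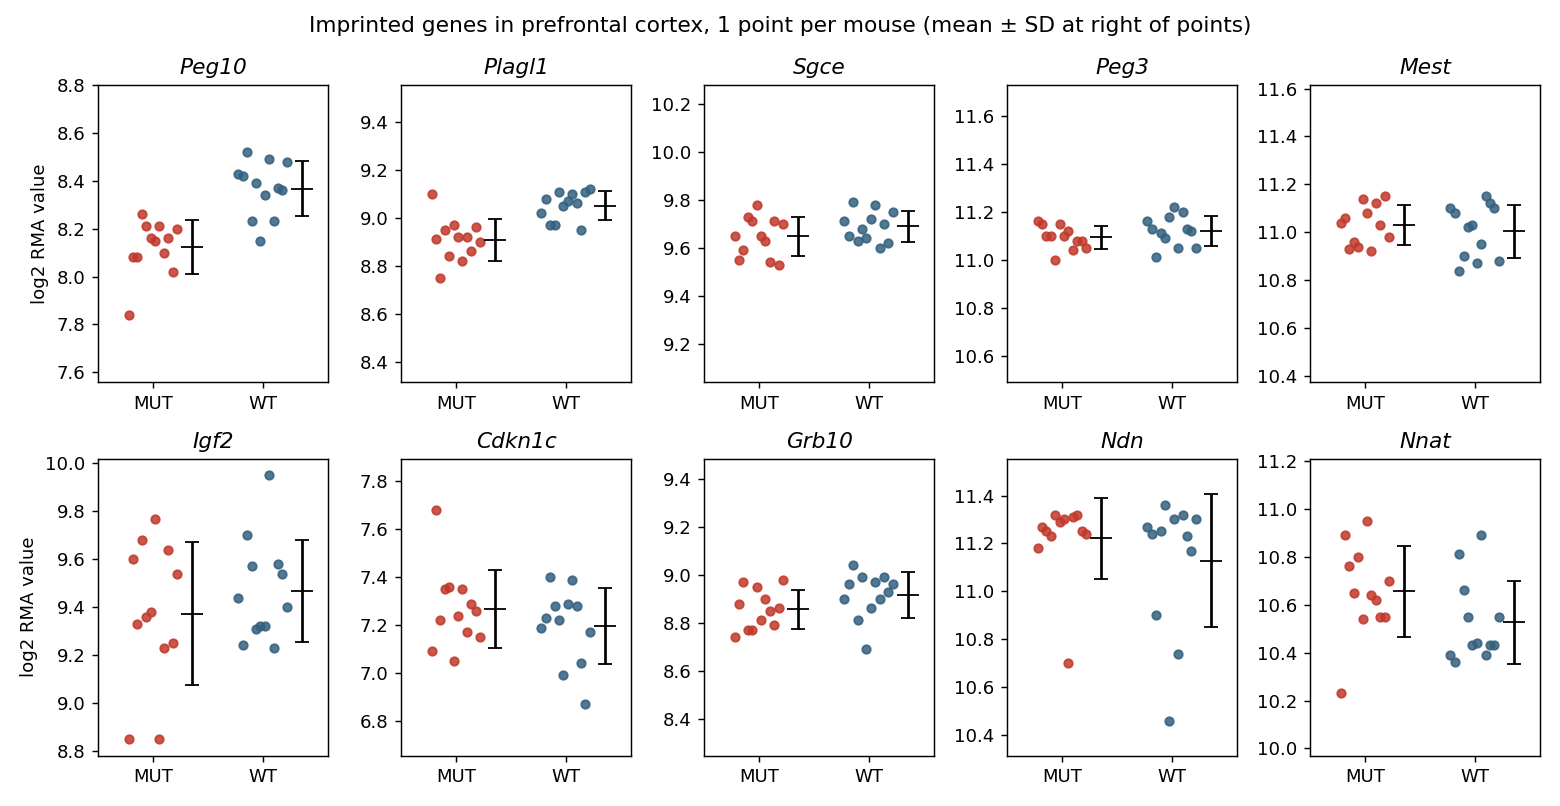
Level of each of the 10 imprinted genes in every mouse, on the log2 scale, with MUT left of WT and the mean ± SD (n = 12 each) beside the points. Each panel spans the same height of the log2 scale; Peg10 has 6 and Plagl1 has 9 MUT mice below the lowest WT mouse, and in Ndn 1 MUT and 3 WT mice lie far below the rest.

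Peg10 derives from an ancient retrotransposon and encodes Gag- and Pol-like proteins that are essential for the placenta; it is expressed from the paternal copy. In MUT its level ran from 7.84 to 8.26 with a median of 8.15, and in WT from 8.15 to 8.52 with a median of 8.38. All 12 MUT mice lay below the WT median, and 9 of the 12 WT mice lay above the highest MUT mouse. The overlap came from the WT mice of replicates 6, 4 and 9, at 8.15, 8.23 and 8.23. The means were 8.12 ± 0.11 in MUT and 8.37 ± 0.11 in WT (SD, n = 12 each), a difference of -0.25 ± 0.05 (SE) and a fold of 0.843. The lowest value of all, 7.84, was that of the MUT mouse of replicate 1, and with single arrays left out in turn the difference stayed between -0.27 and -0.22.

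Sgce, which encodes epsilon-sarcoglycan and is mutated in human myoclonus-dystonia, is the immediate neighbour of Peg10 on chromosome 6 and shares its imprinting control region and its paternal expression. It ran from 9.53 to 9.78 in MUT, with a median of 9.65, and from 9.60 to 9.79 in WT, with a median of 9.69. Of the MUT mice, 4 lay below the lowest WT mouse, and 2 WT mice lay above the highest MUT mouse. The difference of -0.04 ± 0.03 (SE) did not pass. Whether the differences of Peg10 and Sgce themselves differ was not tested, because Peg10 had been picked for its own.

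Plagl1, also called Zac1, encodes a zinc-finger transcription factor that slows the cell cycle and is known to regulate other imprinted genes; it too is expressed from the paternal copy. Its level ran from 8.75 to 9.10 in MUT, with a median of 8.92, and from 8.95 to 9.12 in WT, with a median of 9.06. Of the MUT mice, 9 lay below the lowest WT mouse and 11 below the WT median, while 3 WT mice lay above the highest MUT mouse. The exception to the lower MUT values was the MUT mouse of replicate 1, at 9.10, the same animal that was lowest for Peg10. The means were 8.91 ± 0.09 in MUT and 9.05 ± 0.06 in WT (SD, n = 12 each), a difference of -0.14 ± 0.03 (SE) and a fold of 0.907. Plagl1 passed in 15 of the 24 fits that left out a single array, where Peg10 passed in 24; it did not pass without MUT replicates 3, 5, 8 or 10 or WT replicates 5, 7, 8, 11 or 12, at differences between -0.16 and -0.13 over the 24. Of 12 other settings it passed in 5 and Peg10 in 10. It was lost with quantile normalization, median centring, the replicate block, the first component as a term, without the 3 outlying arrays and in each set of 12 arrays, with differences between -0.17 and -0.11.

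Peg3, a paternally expressed zinc-finger gene linked to growth in mice, was among the steadiest of the set. It ran from 11 to 11.16 in MUT, with a median of 11.10, and from 11.01 to 11.22 in WT, with a median of 11.13. Of the MUT mice, 9 of 12 lay below the WT median, and 4 WT mice lay above the highest MUT mouse. The difference of -0.03 ± 0.03 (SE) did not pass and was 0.01 in arrays 1 to 12 and -0.06 in arrays 13 to 24. Mest, a paternally expressed hydrolase-like gene that promotes embryonic growth, ran from 10.92 to 11.15 in MUT and from 10.84 to 11.15 in WT, with a difference of 0.03 ± 0.04 that ran from 0.01 to 0.04 with single arrays left out. Its medians, 11.04 in MUT and 11.02 in WT, were close.

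Nnat encodes neuronatin, a small membrane protein of the endoplasmic reticulum expressed from the paternal copy in developing neurons. It ran from 10.23 to 10.95 in MUT, with a median of 10.65, and from 10.36 to 10.89 in WT, with a median of 10.44. Of the MUT mice, 11 of 12 lay above the WT median, while the MUT mouse of replicate 1 had the lowest value of all. The means differed by 0.13 ± 0.07 (SE) and the medians by 0.21, and the gene did not pass.

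Ndn encodes necdin, a MAGE-family protein of postmitotic neurons from the region deleted in human Prader-Willi syndrome. Its 24 values fell into separate sets: 20 mice lay between 11.17 and 11.36, and 4 mice lay below them at 10.90 or less. The low mice were MUT replicate 8, at 10.70, and WT replicates 3, 6 and 8, at 10.90, 10.46 and 10.74. The medians were 11.26 in MUT and 11.25 in WT, so the difference of means, 0.09 ± 0.09 (SE), was larger than that of the medians, 0.01. It was 0.14 without MUT replicate 8 and 0.03 without WT replicate 6. The neighbouring Magel2, another MAGE gene of the Prader-Willi region, ran from 5.48 to 6.02 in MUT and from 5.41 to 5.98 in WT.

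Igf2, the insulin-like growth factor that drives fetal growth, varied most from mouse to mouse. It ran from 8.85 to 9.77 in MUT, with a median of 9.37, and from 9.23 to 9.95 in WT, with a median of 9.42. MUT replicates 1 and 8, both at 8.85, lay below every WT mouse, and the other 10 MUT mice lay at 9.23 or above. The difference was -0.09 ± 0.10 (SE), less than the spread within either genotype (SD 0.30 in MUT and 0.21 in WT). With single arrays left out it ran from -0.13 to -0.05, at -0.05 without MUT replicate 1, MUT replicate 8 or WT replicate 8. Its SD within genotype, 0.26, exceeded that of 97.0% of all genes, and that of Ndn, 0.23, exceeded 94.6%. Peg3, at 0.06, exceeded 9.7%, and the median over all genes was 0.12.

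Cdkn1c encodes p57, an inhibitor of cyclin-dependent kinases expressed from the maternal copy. It ran from 7.05 to 7.68 in MUT and from 6.87 to 7.40 in WT, and its medians, 7.25 in MUT and 7.23 in WT, were close. The difference of means was 0.07 ± 0.06 (SE), and it was 0.03 without the MUT mouse of replicate 2, the highest, and 0.04 without WT replicate 11, the lowest. Grb10, an adaptor that damps signalling from insulin and IGF receptors and is expressed from the paternal copy in neurons, ran from 8.74 to 8.98 in MUT and from 8.69 to 9.04 in WT. Its median was 8.86 in MUT and 8.94 in WT, and 9 of the MUT mice lay below the WT median, with a difference of -0.06 ± 0.04.

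**Figure D2:**
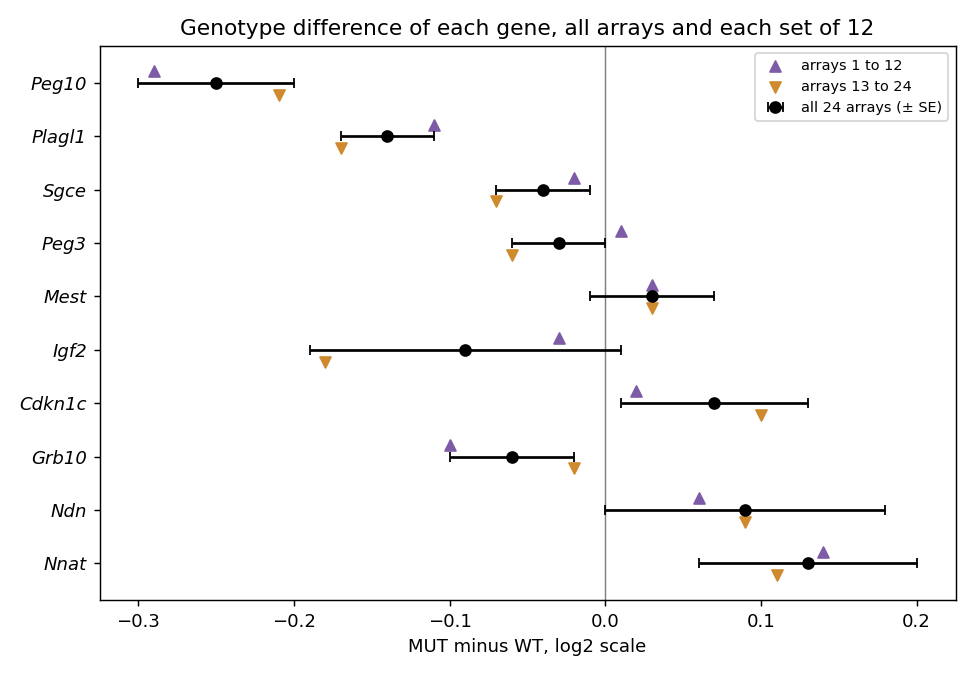
Difference MUT minus WT of each gene on the log2 scale: circles give all 24 arrays with the standard error, and triangles give arrays 1 to 12 and arrays 13 to 24 separately. Peg10 lies at -0.25 with -0.29 and -0.21 in the 2 sets of arrays, and Plagl1 at -0.14 with -0.11 and -0.17.

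The labels number the arrays from 1 to 24. Arrays 1 to 12 held 7 MUT and 5 WT mice and arrays 13 to 24 held 5 MUT and 7 WT mice. The differences had the same sign in both sets for 9 of the 10 genes, the exception being Peg3. A term for the change of the genotype difference between the sets did not pass for any of the 10 (limma, lowest adjusted p = 0.847; unadjusted p under 0.05 for 0 of them and for 1105 of all genes).

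The next comparison asked whether other imprinted genes of the same regions differed as their neighbours on the list did. At the Peg10 and Sgce region none of 6 measured genes passed (limma). Tfpi2, a secreted protease inhibitor, had 0.14 ± 0.06 (SE) and Calcr, the calcitonin receptor, 0.11 ± 0.07 (adjusted p = 0.32 and 0.577). Ppp1r9a, the actin-binding neurabin, had -0.01 ± 0.02, and Pon2 and Pon3, of the paraoxonase family, 0.01 ± 0.04 and 0.01 ± 0.06. No gene of this region other than Peg10 and Sgce lay lower than -0.01. Tfpi2, Calcr and Asb4 were dim, with group means between 4.28 and 5.19 against a median of 7.58 over all genes, and no detection call was given.

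In the other regions none of the measured neighbours passed either (limma), with differences between -0.08 for Tssc4 and 0.13 for Ins2. Blcap, which contains Nnat in an intron, had 0.07 ± 0.03 (limma, adjusted p = 0.349), and Ins2, the insulin gene beside Igf2, 0.13 ± 0.04 (adjusted p = 0.202). Ins2 was also dim, with a mean of 5.45 in MUT and 5.32 in WT. Around Cdkn1c, the 7 measured genes ran from -0.08 for Tssc4 to 0.07 for Phlda2, a restrainer of placental growth. Around Ndn the 4 genes ran from -0.05 for Ube3a, the Angelman syndrome ubiquitin ligase, to 0.12 for Magel2. Beside Mest, Copg2 had -0.01 and Klf14 -0.04. Beside Peg3, Zim1 had -0.01 and Usp29 0.01.

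**Figure D3:**
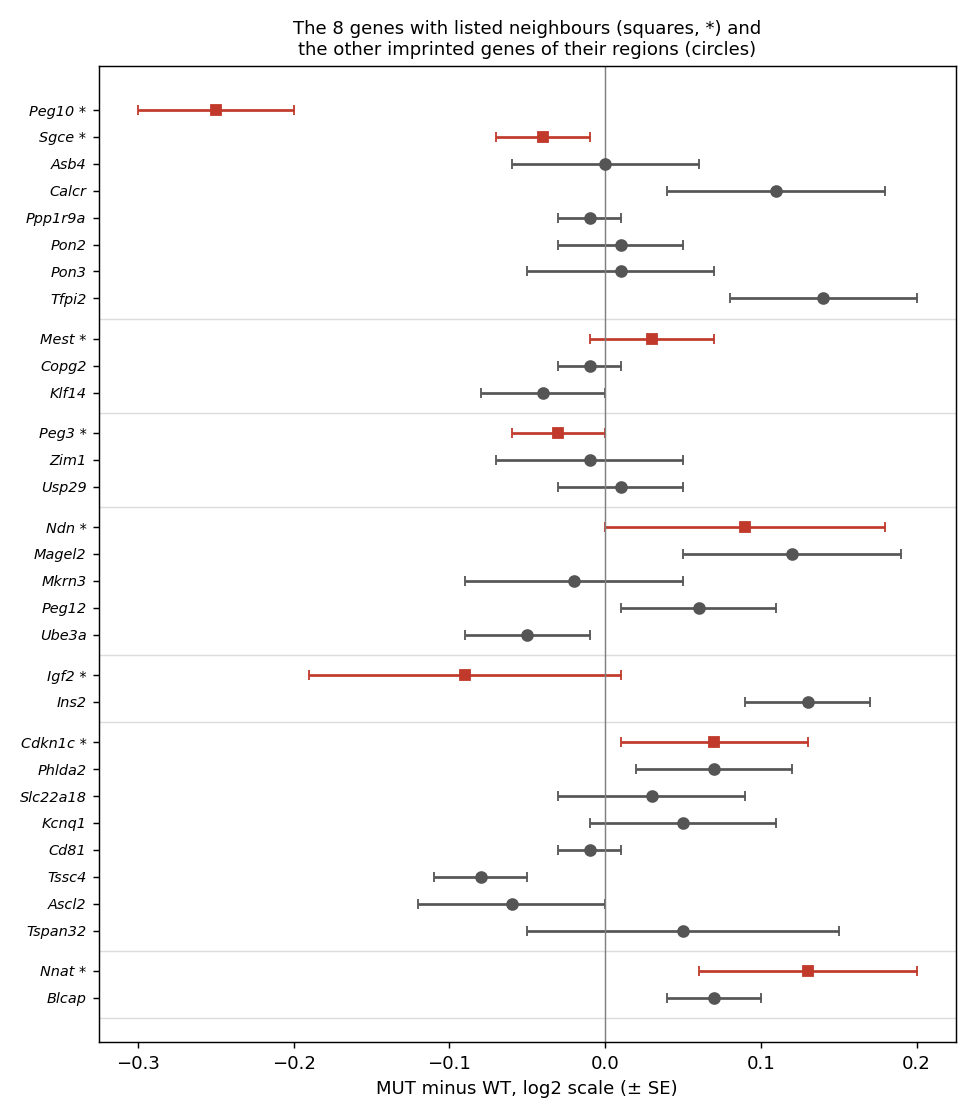
Difference MUT minus WT with its standard error, on the log2 scale, for 8 of the genes (squares) and for the other measured imprinted genes of their regions (circles), grouped by region. Peg10 lies at -0.25, and the other genes of its region lie between -0.04 for Sgce and 0.14 for Tfpi2.

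Of 39 measured imprinted genes outside chromosome 12 and outside the list, none passed (limma), and 6 had an unadjusted p under 0.05. Of all genes, 11.9% had such a p. The median difference of the 39 was 0.007 with 21 above 0 and 18 below. The 39 were not restricted to genes known to be imprinted in cortex, and the values do not separate the parental copies. Several, such as Tfpi2 and Ins2, were dim. Kcnk9, a maternally expressed potassium channel of the brain, had 0.12 ± 0.05 (SE) and Tssc4, a gene of the Cdkn1c region, -0.08 ± 0.03 (adjusted p = 0.306 and 0.3). Of 5 genes of the chromosome 12 cluster none passed, 1 had an unadjusted p under 0.05, and the median was 0.019. That gene was Meg3, a maternally expressed long noncoding RNA, at 0.09 ± 0.03 (limma, adjusted p = 0.188). Of 20 genes that maintain or read imprints none passed and 5 had an unadjusted p under 0.05, with a median of -0.006. Dnmt3b, a de novo DNA methyltransferase, had 0.13 ± 0.05, Ctcf, the insulator protein that governs Igf2, -0.06 ± 0.02, Smchd1, a chromatin silencer, -0.10 ± 0.04, and Tet3, which oxidises methylcytosine, -0.09 ± 0.04.

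Relatives and partners of the members gave the same count. Of 14 other genes derived from retrotransposon Gag, none passed and 3 had an unadjusted p under 0.05 (limma): Rtl5 at -0.20 ± 0.06 (SE), Ldoc1 at 0.17 ± 0.06 and Rtl3 at 0.31 ± 0.11, so that relatives of Peg10 lay on both sides of 0. Plag1, the relative of Plagl1, had -0.17 ± 0.07 and Plagl2 -0.02 (adjusted p = 0.343 and 0.885). Of 12 genes of the dystroglycan complex, to which the sarcoglycans belong, none passed and none had an unadjusted p under 0.05.

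Of 22 genes of the IGF pathway none passed and 2 had an unadjusted p under 0.05. Igf1r, the receptor through which Igf2 signals, had 0.10 ± 0.03 (SE) and Pik3ca, the catalytic subunit of a PI3 kinase, -0.06 ± 0.02 (limma, adjusted p = 0.171 and 0.24). Igf1r passed in the fit with the 2 sets of arrays as a term, at 0.12 ± 0.03 (adjusted p = 0.039). Of 11 cell-cycle genes around Cdkn1c none passed, 2 had an unadjusted p under 0.05 and 9 lay below 0, with E2f1, a transcription factor of S phase entry, at -0.08 ± 0.03, Ccnd1, a G1 cyclin, at -0.08 ± 0.04 and Cdkn1a, which encodes p21, at -0.15 ± 0.07. Of 10 relatives and partners of necdin none passed and 3 had an unadjusted p under 0.05. Mageh1, a MAGE gene of the X chromosome, came closest.

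Mageh1 ran from 6.75 to 7.12 in MUT and from 6.90 to 7.18 in WT, with a difference of -0.16 ± 0.04 (SE; limma, adjusted p = 0.0581). Its adjusted p ranged from 0.00469 to 0.922 over 36 alternatives, and it passed in arrays 1 to 12 alone at -0.28 ± 0.04, with the dimmest genes left out, and without MUT replicate 11 or 12 or WT replicate 10 (between -0.18 and -0.17). Over all 135 genes of these 9 lists, 23 had an unadjusted p under 0.05, and of all genes 11.9% did.

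Because covariation among mice of the same genotype does not use the difference between genotypes, it was tested. Each value was taken as a deviation from its genotype mean, and 45 pairs were compared over 24 mice (permutation test within genotype, two-sided, Benjamini-Hochberg adjustment over the 45). In 11 pairs the p was under 0.05, and 5 passed after adjustment, 3 positive and 2 negative. No share over all pairs of genes was computed, so these counts are not read as a trait of the listed genes. No pooled correlation is given for Ndn, whose values fall into separate sets and whose pairs stay among the 45.

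Igf2 and Nnat rose and fell together, with Pearson's r = 0.69 (permutation p = 0.00034, adjusted p = 0.0153) and Spearman's rho = 0.55 (p = 0.00634, adjusted p = 0.0762). The relation was present in MUT (r = 0.62) and in WT (r = 0.82), in arrays 1 to 12 (0.82) and 13 to 24 (0.54), and without the 2 mice farthest out in Igf2 (0.71). Peg10 and its neighbour Sgce also moved together, with r = 0.59 (permutation p = 0.00251, adjusted p = 0.0479) and rho = 0.72 (p = 0.00014, adjusted p = 0.0063). That r was 0.45 in MUT, 0.78 in WT, 0.48 and 0.71 in the 2 sets of arrays, and 0.76 without the 2 mice farthest out in Peg10. The part of the shared control region in this relation was not tested. Peg10 had higher r with genes outside the list, up to 0.80 for Kat7.

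The other 3 pairs were close to the threshold. Peg10 and Peg3 ran in opposite directions, with r = -0.58 (permutation p = 0.00361, adjusted p = 0.0479) and rho = -0.54 (p = 0.01, adjusted p = 0.09), at -0.42 in MUT and -0.71 in WT. It was -0.51 and -0.66 in the 2 sets of arrays and -0.50 without the 2 farthest mice. Peg3 and Nnat did so as well, with r = -0.56 (permutation p = 0.00448, adjusted p = 0.0479) and rho = -0.58 (p = 0.00417, adjusted p = 0.0762). Their r was -0.32 in MUT, -0.78 in WT, -0.57 and -0.60 in the 2 sets of arrays, and -0.46 without the 2 farthest mice. Cdkn1c and Nnat moved together, with r = 0.58 (permutation p = 0.00532, adjusted p = 0.0479) and rho = 0.44 (p = 0.0368, adjusted p = 0.176), at 0.57 in MUT, 0.59 in WT, 0.64 and 0.45 in the 2 sets of arrays, and 0.55 without the 2 farthest mice.

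These 3 relations and that of Peg10 with Sgce each lost the threshold in several of the 7 alternatives: Peg10 with Sgce passed in 3 of them, Peg10 with Peg3 in 2, Peg3 with Nnat in 4 and Cdkn1c with Nnat in 1, against 6 for Igf2 with Nnat. Of 24 leave-one-out settings they passed in 13, 12, 11, 9 and 23. Plagl1 had no pair that passed, its strongest being with Nnat at r = -0.41 (permutation p = 0.059, adjusted p = 0.204) and rho = -0.27 (p = 0.213, adjusted p = 0.505), which rested on the 2 farthest mice (r = -0.13 without them). Its r with Peg10 was -0.28 (permutation p = 0.188, adjusted p = 0.403), with rho = -0.04 (p = 0.846, adjusted p = 0.907) and r = 0.07 without the 2 farthest mice.

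**Figure D4:**
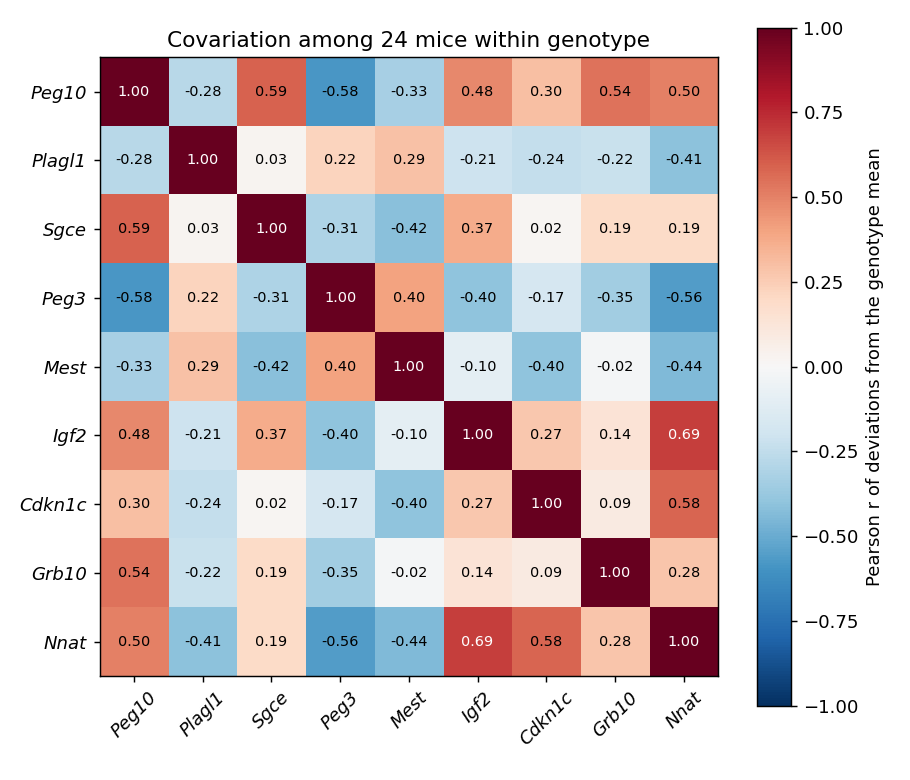
Pearson's r between the deviations of 24 mice from their genotype means, for 9 genes (Ndn left out because its values fall into separate sets). Igf2 with Nnat (0.69) and Peg10 with Sgce (0.59) are the highest values off the diagonal, and Peg10 with Peg3 (-0.58) the lowest.

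Markers of the cell types that a cortical dissection can hold were then set beside the members, since Igf2 is known from meninges and choroid plexus. Each member was related to the mean level of 12 marker lists over the 24 deviations, 120 relations in all. Of these, 14 had a permutation p under 0.05 and 2 passed after adjustment over the 120. Other genes were not related to the marker lists, so these counts have no share over all genes beside them. Igf2 followed the 14 markers of leptomeningeal fibroblasts, the cells of the membranes that cover the cortex, with r = 0.89 (permutation p = 1e-05, the lowest value 100000 resamples allow; adjusted p = 0.0012) and rho = 0.90 (p = 1e-05, adjusted p = 0.0012). That r was 0.90 in MUT and 0.92 in WT, 0.88 and 0.89 in the 2 sets of arrays, and 0.83 without the 2 farthest mice, and it passed in all 7 alternatives and all 24 leave-one-out settings. With choroid plexus markers Igf2 had r = 0.50 (permutation p = 0.00991, adjusted p = 0.172) and rho = 0.38 (p = 0.0726, adjusted p = 0.382), at 0.28 without the 2 farthest mice. Its r was 0.54 with astrocyte, 0.51 with pericyte and -0.49 with oligodendrocyte markers, and none of these relations passed. Grb10 followed the 13 interneuron markers, with r = 0.64 (permutation p = 0.00064, adjusted p = 0.0384) and rho = 0.69 (p = 0.00041, adjusted p = 0.0246), at 0.64 in MUT, 0.64 in WT, 0.74 and 0.65 in the 2 sets of arrays and 0.64 without the 2 farthest mice. The relation of Grb10 passed in 3 of 7 alternatives and in 18 of 24 leave-one-out settings.

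**Figure D5:**
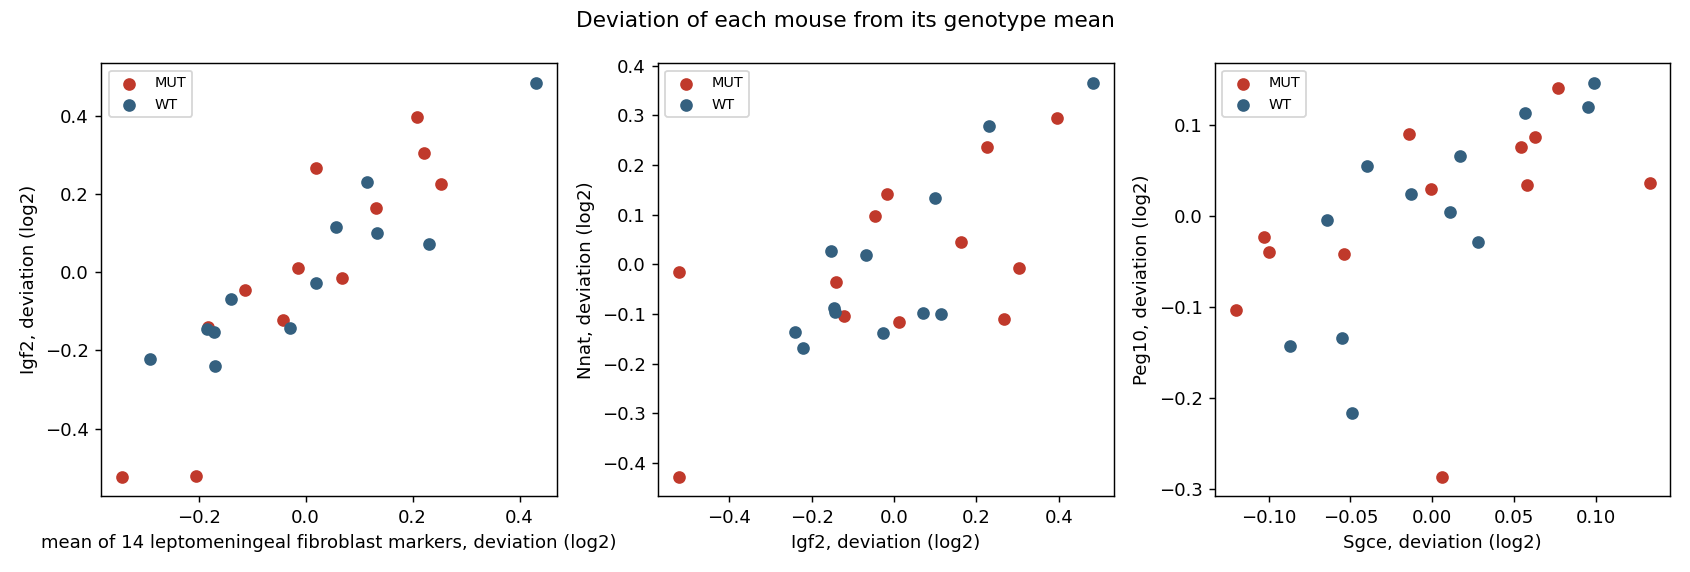
Deviations from the genotype mean on the log2 scale, 1 point per mouse with MUT in red and WT in blue: Igf2 against the mean of 14 leptomeningeal fibroblast markers, Nnat against Igf2, and Peg10 against Sgce. The points of the first panel lie close to a line (r = 0.89), and those of the other panels scatter more widely (r = 0.69 and 0.59).

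Nnat with the leptomeningeal markers had r = 0.62 (permutation p = 0.00188, adjusted p = 0.0564) and rho = 0.55 (p = 0.00756, adjusted p = 0.186); r was 0.58 in MUT, 0.66 in WT, 0.69 and 0.58 in the 2 sets of arrays, and 0.48 without the 2 farthest mice. Cdkn1c with blood markers had r = -0.60 (permutation p = 0.00172, adjusted p = 0.0564) and rho = -0.53 (p = 0.00775, adjusted p = 0.186). That r was -0.32 in MUT, -0.79 in WT, -0.35 and -0.77 in the 2 sets of arrays, and -0.49 without the 2 mice farthest out in Cdkn1c. Neither this relation nor that of Nnat passed. The measured blood markers were Alas2, Ngp, S100a8 and S100a9. Their mean deviation was highest in WT replicates 10 and 11, at 1.316 and 2.233. Of these mice, only WT replicate 11 was among the 2 left out. For Peg10 the strongest relation was with interneuron markers, r = 0.41 (permutation p = 0.0569, adjusted p = 0.405) and rho = 0.43 (p = 0.0461, adjusted p = 0.291), at 0.31 without the 2 farthest mice. For Plagl1 it was with microglia markers, r = 0.44 (permutation p = 0.036, adjusted p = 0.333) and rho = 0.44 (p = 0.0382, adjusted p = 0.291), at 0.70 in MUT, 0.08 in WT and 0.20 without the 2 farthest mice.

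Between genotypes, 1 gene of the 12 marker lists passed. The 14 leptomeningeal markers averaged 7.96 ± 0.19 in MUT, between 7.61 and 8.21, and 7.97 ± 0.21 in WT, between 7.68 and 8.40 (SD, n = 12 each), and none passed. The 12 choroid plexus markers averaged 5.41 ± 0.09 in MUT and 5.39 ± 0.13 in WT, and none passed. Ttr, the transthyretin that defines choroid plexus, was at 5.43 ± 0.23 in MUT and 5.68 ± 0.68 in WT, where a single mouse reached 7.61. The 13 interneuron markers averaged 9.53 ± 0.06 in MUT, between 9.46 and 9.67, and 9.47 ± 0.05 in WT, between 9.40 and 9.54. Of these 12 lay above 0 and 1, Nos1, passed at 0.20 ± 0.04 (SE; limma, adjusted p = 0.0227, and between 0.00974 and 0.395 over 36 alternatives). Of 10 listed blood markers 4 were measured, with no haemoglobin gene among them. All 4 lay below 0, from -0.05 for Alas2 to -1.20 for Ngp, and none passed. Their means were 6.11 ± 0.35 in MUT, between 5.69 and 6.68, and 6.70 ± 0.88 in WT, between 6.08 and 8.94. The 8 oligodendrocyte markers also all lay below 0 and none passed, at 9.08 ± 0.14 in MUT and 9.15 ± 0.16 in WT. The part of these markers in the differences of Peg10 and Plagl1 was not tested.

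The genes whose deviations were most like those of 3 members were listed over the 24 mice, as a description. For Igf2 they were Slc6a13 (r = 0.94), a GABA transporter of the meninges, Zic1 (0.89), a zinc-finger factor, the matrix proteins Fmod and Ogn (both 0.89), Anpep (0.87), an aminopeptidase, and Gpc3 (0.86), a glypican. Of these, Slc6a13, Fmod and Ogn stand on the list of leptomeningeal markers. For Peg10 they were Kat7 (0.80), a histone acetyltransferase, Ipo8 (0.79), an importin, Stambp (0.78), a deubiquitinating enzyme, Necap1 (0.78), an endocytic protein, Smad1 (0.78), a mediator of BMP signalling, and Siah2 (0.77), a ubiquitin ligase. For Plagl1 the values were lower, from 0.67 for Crot, a carnitine acyltransferase of peroxisomes, to 0.65 for Man1a2, a mannosidase, with Tmem178b, Gm5820, Lct and Pappa2 at 0.66. All 24 values of each gene share the arrays, so whatever moves many genes of an array together enters these figures. The r of the first within-genotype component was -0.13 with Peg10 and -0.03 with Plagl1.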

How the data were processed

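The authors deposited log2 expression values, 1 per probe set and array, for 35556 probe sets. RMA is the tool that the submitters' processing notes list; no version, setting or build is stated there. Per the labels, 100 ng of total RNA was labelled for each array. Values ran from 1.82 to 14.49, with array medians from 6.71 to 6.82 and correlations between arrays from 0.994 to 0.997. The number of arrays limits the precision.

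Rows with a single symbol (21218) gave 18820 genes, the brightest row being kept where a gene had several; 1881 rows had several symbols and 12457 none. Symbols were updated by Entrez identifier from a RefSeq table (GRCm38.p6, 18790 genes matched). MUT and WT were compared with limma 3.58.1 in R 4.3.3 (genotype as sole term, moderated standard errors, Benjamini-Hochberg over 18820 genes, threshold 0.05); the step was tested on simulated data. Permutation tests used 100000 resamples. Genes were named by rule: the 10 members, listed genes that passed, up to 4 of each list by p, and the 6 most alike. Members and lists were chosen with earlier results of these data known. Neighbours of members were named by position, Slc17a7 and Snap25 as neuronal markers, and Ttr as the defining marker of choroid plexus. The settings tried were other normalizations, variance models, filters and probe set rules, a replicate block, the 2 sets of arrays, a component term and left-out arrays.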

Additional observations from a re-analysis of the deposited data

How the results depend on the processing

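The number of the 10 genes that passed as lower, 2 in the comparison as reported, was 1 with quantile normalization, median centring, the replicate block, the first within-genotype component as a term and without the 3 outlying mutant arrays, where Peg10 alone passed, and 0 in arrays 1 to 12 and in arrays 13 to 24 alone, which hold fewer mice. It was 1 to 2 with single arrays left out, and the number that passed as higher was 0 throughout. The component term, the left-out arrays and the leave-one-out settings were chosen after seeing the data. The members' differences moved by less than their within-genotype SD in every alternative run, and the exception to a kept sign was Peg3 in arrays 1 to 12. The count over the imprinted and partner lists was 0 as reported and 1 with the dimmest genes left out (Mageh1), with the sets of arrays as a term (Igf1r) and in arrays 1 to 12 alone (Mageh1), and 0 to 1 with single arrays left out. The count over marker lists, 1 as reported (Nos1), was 0 in each set of arrays alone, with the first component as a term and without the 3 outlying arrays, and 1 with every single array left out. All genes that passed as lower numbered 43, against 66 with a variance trend, 66 with the dimmest genes left out, 23 in arrays 1 to 12 and 22 in arrays 13 to 24, and 37 to 56 with single arrays left out. Of the 45 pairs, 5 passed, against 1 with Spearman's rho, 2 with quantile normalization, 3 with median centring, 3 with the sets of arrays as a term, 3 without the 3 outlying arrays, 1 with the replicate block (12 differences between same-numbered mice) and 0 to 6 with single arrays left out. Of the 120 marker relations, 2 passed, against 5 with median centring, 1 without the 3 outlying arrays and 1 to 4 with single arrays left out. Deviations of mice that share a replicate number correlated between -0.08 and 0.31 (median 0.10, over 0.1 in 6 of 12), against a median of -0.01 for different numbers (over 0.1 in 19 of 132). Same-numbered mice thus correlated more often, though not in every pair. The comparison as reported and the permutation tests did not treat the numbers as pairs. With the replicate block Peg10 passed and Plagl1 did not, and 1 of the 45 pairs passed. The cause of the other changes was not tested. Signal over background limits the dim genes, for which no detection call was given.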
